A study of Mus musculus with 2 samples.

Results

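Transcripts of 10 genes that fold mitotic chromosomes or hold sister chromatids together were read in cultures of hepatocytes from control and *Drp1*LiKO livers. The genes were taken by name, as all transcript probes listed under *Smc2*, *Smc4*, *Ncapd2*, *Ncapd3*, *Ncapg*, *Ncapg2*, *Ncaph*, *Ncaph2*, *Sgol1* and *Cdca5*, which gave 20 probes and 10 of the 37074 gene names on the array. The *Drp1*LiKO cells came from *Alb-Cre* Tg/+ *Drp1* flox/flox mice, in which the albumin promoter drives Cre and so deletes *Drp1*, the gene of a mitochondrial fission GTPase, in hepatocytes. Control cells came from sibling *Drp1* flox/flox mice and are called wild type in the labels, so both genotypes carried the floxed allele and Cre was present in one of them. Both were on the C57BL/6 background, and the labels give neither the age of the donors nor the number of animals behind an array. The cells were harvested 24 h after seeding on collagen, and the arrays, 1 per genotype, were hybridized on the same slide and read in the same scan. Since each genotype has a lone array, no difference could be tested, and the values hold for these 2 arrays.

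Condensins are rings that compact chromosomes before division. Condensin I and condensin II share the ATPases SMC2 and SMC4, and each adds its own kleisin subunit, which closes the ring, and its own pair of HEAT-repeat subunits, which bind DNA. Condensin II is nuclear throughout the cell cycle, whereas condensin I reaches chromosomes once the nuclear envelope breaks down. Cohesin is a related ring that holds sister chromatids together until anaphase. Sororin, the product of *Cdca5*, keeps cohesin from being released after replication, and shugoshin, the product of *Sgol1*, shields cohesin at centromeres early in mitosis. Most hepatocytes of an adult liver are not dividing, and these genes are best known from proliferating cells.

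*Drp1*, listed on the array as *Dnm1l*, gave 2602 and 1217 (control, then *Drp1*LiKO) at its brightest probe, with a log2 ratio of -1.28 after scaling. All ratios here are *Drp1*LiKO over control. Signals are printed as the scanner software gave them, whereas ratios were taken after the 75th percentiles of the arrays were set equal, which lowered every log2 ratio by 0.18. Its other probe lay near background, at 22.8 and 20.95, with a ratio of -0.31. The hepatocyte markers were detected on at least 1 array at 12 of 12 genes, with 8 higher and 4 lower from *Drp1*LiKO cells. They ran from -1.05 for *G6pc* to 1.28 for *Tat*. *Pck1* in control cells and *G6pc* in *Drp1*LiKO cells were not well above background. *Alb*, the gene of albumin, read 219600 in control and 266700 in *Drp1*LiKO hepatocytes. After scaling, the ratio of *Alb* was 0.098, and its other probe gave -0.087. All 59305 transcript spots of each array were below saturation.

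Of the 20 probes, 17 were well above background on both arrays, and they covered all 10 genes. The other 3, a second probe of *Ncapd2*, of *Ncapg* and of *Sgol1*, were not well above background on either array and had signals of 17.8, 14.3 and 4.03 on the control array and 6.26, 5.92 and 3.34 on the other. Each of these 3 probes is assigned to an Ensembl transcript rather than to a RefSeq mRNA. None of the 20 probes carried an outlier mark.

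All 17 probes had a log2 ratio below 0. By the brightest probe of each gene, 10 of 10 genes had a ratio below 0, against 55.5% of the 20165 genes compared. The median log2 ratio of the 10 genes was -1.13, a signal 2.19-fold lower in *Drp1*LiKO cells, against -0.047 for all genes. Of the 10 genes, 6 were lower by 2-fold or more, whereas 4.59% of all genes were, and 2 passed a Z score of -2, whereas 2.81% of all genes did. That Z score corresponds here to a log2 ratio of -1.31, or 2.48-fold lower. The study lists 6 of the 10 genes among mitotic genes it chose from these arrays, so their direction is no independent evidence. It also names a limit of 2 on a Z score, but 1 of those 6, *Ncapg2*, passed the score computed here, which is therefore not the study's own. Those 6, *Smc2*, *Smc4*, *Ncapd2*, *Ncapg2*, *Sgol1* and *Cdca5*, had a median of -1.22, and the other 4 one of -0.61, from -1.57 for *Ncapg* to -0.16 for *Ncaph2*. The study's list covers genes of mitotic nuclear division only. Absence from it, here or below, does not show that the study left a gene out. In these whole cultures, fewer cells of a type, such as dividing ones, and less RNA per cell cannot be told apart.

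Markers of other liver cells differed between the arrays as well. Of 13 markers of Kupffer cells and macrophages, 11 were detected, and the signal of all 11 was higher from *Drp1*LiKO cells, for 10 of them past the upper Z score threshold that 3.5% of all genes passed. The summed signal of the detected markers was 4705 in control against 20480 in *Drp1*LiKO cells. The brightest probe of *Csf1r*, the marker short of the threshold, gave 0.729 and its other probe -0.017. *Clec4f* and *Vsig4*, which define Kupffer cells, were not well above background in control cells. They therefore entered through the *Drp1*LiKO array, and their ratios are against the floor. *Timd4* and *Cd163* have probes, but these were not well above background on either array. All 10 endothelial markers were higher too, 4 of them past the threshold, and *Lyve1* and *Tek* were not well above background in control cells. The summed signals of the endothelial markers, 4682 and 9685, were mostly those of *Egfl7*, at 3773 and 6941. Probes of *Stab2* ranged from -0.245 to 1.147. Of 9 stellate cell markers, 7 were detected and 3 passed the threshold upward, *Dcn* at 4.06, *Col1a2* at 2.93 and *Pdgfrb* at 1.86. The value of *Col1a2* rests on its brightest probe, and another of its probes gave -0.18. The summed signals of the 7 detected markers, 21940 and 29950, were mostly those of *Acta2*, at 21440 and 24640 with a ratio of 0.02. Probes of *Acta2* differed as well, and the highest of its 3 gave 2.20. *Pdgfrb* and *Des* were not well above background in control cells, and *Des* had a ratio below 0 only because of the floor (signals of 6.47 and 18.5). The part of these cells in the values of the condensin and cohesin protection genes was not tested.

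**Figure D1:**
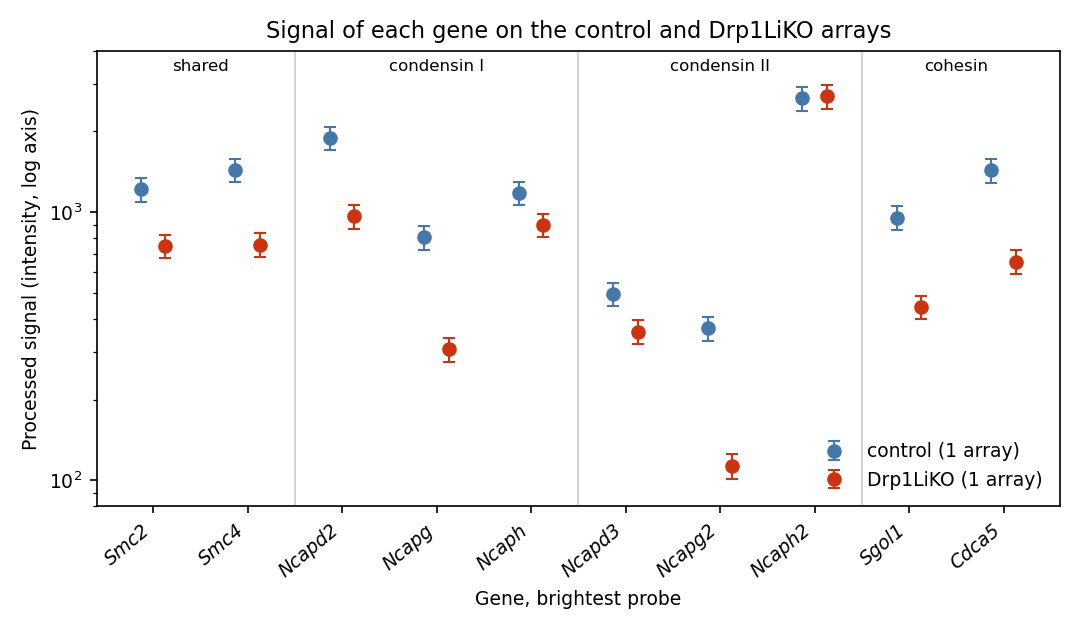
Processed signal (log axis) of the brightest probe of each gene on the control and *Drp1*LiKO arrays, with the error of the scanner software as bars, ordered by complex. Points are to be compared within a gene, since probes differ in brightness. Control lay above *Drp1*LiKO for 9 genes, and the bars overlapped for *Ncaph2*.

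The shared ATPases were measured with 3 probes each, placed at different positions of the transcript. *Smc2*, whose product forms one arm of the condensin ring, had signals of 1216 ± 122 in control against 749.2 ± 75.01 in *Drp1*LiKO cells at its brightest probe (NM_001301412, chromosome 4 of mm9, 52501012 to 52501071), where the error is that of the scanner software. Its log2 ratio there was -0.88 ± 0.20, or 1.84-fold lower. The other *Smc2* probes gave 562 and 351, a ratio of -0.86, and 328 and 193, a ratio of -0.95. All 3 probes therefore placed *Smc2* short of the 2-fold limit, within 0.09 of each other on the log2 scale.

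*Smc4*, the gene of the partner ATPase, had a somewhat lower ratio. Its brightest probe (NM_133786, chromosome 3, 68838453 to 68838512) gave 1441 ± 144 on the control array and 758 ± 75.9 on the *Drp1*LiKO array, a log2 ratio of -1.11 ± 0.20. The others gave 926 and 495, a ratio of -1.09, and 718 and 365, a ratio of -1.16. Every probe of *Smc4* lay past the 2-fold limit and every probe of *Smc2* short of it, but the difference between the brightest probes, 0.23, was smaller than the error of such a difference, 0.29.

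Sequences of 3 probes are printed here as examples of what the signals rest on. For *Ncaph2*, treated below, it is the brightest probe. For *Smc2* and *Smc4* it is a dimmer one, with signals of 562 and 351 for *Smc2* and of 718 and 365 for *Smc4*. The gene values of these 2 rest on other probes, whose sequences are not printed. Each is 60 bases long, is given 5′ to 3′ in the sense of the transcript, and holds at least 1 reading frame without a stop codon. The *Smc2* probe, on the plus strand at chr4:52464211-52470154 of mm9, spans 5944 bases of the genome and so crosses at least 1 intron. The *Ncaph2* probe, at chr15:89201188-89201330 on the plus strand, spans 143 bases and also crosses an intron, while the *Smc4* probe, at chr3:68825182-68825241 on the plus strand, lies in an uninterrupted stretch.
Smc2: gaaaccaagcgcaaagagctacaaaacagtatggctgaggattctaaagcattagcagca
Smc4: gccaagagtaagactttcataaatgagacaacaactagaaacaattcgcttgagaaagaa
Ncaph2: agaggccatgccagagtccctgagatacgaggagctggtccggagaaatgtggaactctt

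The subunits of condensin I had a median log2 ratio of -1.15. *Ncapg*, a HEAT-repeat subunit, had the lowest ratio of them. Its signal (NM_019438, chromosome 5, 46091297 to 46091355) was 806 ± 80.7 on the control array and 309 ± 31.1 on the *Drp1*LiKO array, a log2 ratio of -1.57 ± 0.21 with a Z score of -2.39. *Ncapg* was thus 2.97-fold lower and past the threshold. It is not on the study's list, which holds genes of mitotic nuclear division only. The study also reports a cluster of mitotic chromosome condensation among downregulated genes, whose genes it does not list. Whether it chose *Ncapg* is therefore not known.

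*Ncapd2*, the other HEAT-repeat subunit of condensin I, had signals of 1891 ± 189 and 964 ± 96.5 (NM_146171, chromosome 6, 125118012 to 125118066). This gave a log2 ratio of -1.15 ± 0.20 and a Z score of -1.76, past 2-fold but short of the threshold. *Ncaph*, the kleisin of condensin I, differed least of the 3. Its brightest probe (NM_144818, chromosome 2, 126929625 to 126929684) gave 1181 ± 118 on the control array and 896 ± 89.7 on the *Drp1*LiKO array, a ratio of -0.58 ± 0.20. The second probe of *Ncaph* gave 158 and 112, a ratio of -0.69, so both probes kept it well short of 2-fold.

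The subunits of condensin II had a median log2 ratio of -0.65 and were the most unequal group. *Ncapg2*, its HEAT-repeat subunit corresponding to *Ncapg*, had the lowest ratio of all 10 genes. The signal of *Ncapg2* (NM_133762, chromosome 12, 117701714 to 117701773) was 369 ± 37.1 on the control array and 113 ± 11.9 on the *Drp1*LiKO array, a log2 ratio of -1.89 ± 0.21, or 3.69-fold lower, with a Z score of -2.88. This gene has 1 probe on the array, so its value rests on 1 spot per genotype.

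*Ncapd3*, the other HEAT-repeat subunit of condensin II, was read by 1 probe too. Its signals (NM_178113, chromosome 9, 26902747 to 26902806) were 496 ± 49.7 and 359 ± 36.1, a log2 ratio of -0.65 ± 0.21. *Ncaph2*, the kleisin of condensin II, had nearly the same signal in both genotypes. Its brightest probe, whose sequence is given above, had signals of 2658 ± 266 in control against 2704 ± 270 in *Drp1*LiKO cells before scaling between arrays, and 242 and 236 at the other probe. After scaling, its ratios were -0.16 ± 0.20 and -0.22. The difference of *Ncaph2* at its brightest probe was therefore within the error of the scanner software, and its sign changed to 0.025 with no scaling between arrays.

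Side by side, the corresponding subunits of condensin I and condensin II differed in both directions. In the pair *Ncapg* and *Ncapg2*, the condensin II gene had the lower ratio, by 0.32 on the log2 scale (error of the difference 0.29). This gap depended on processing. The ratios of *Ncapg* and *Ncapg2* were -1.39 and -1.47 with another background correction (normexp), which is within that error. They were -1.53 and -2.07 in the deposited normalized values. Among the other HEAT-repeat subunits, *Ncapd3* of condensin II had a ratio higher by 0.51 than *Ncapd2* (error 0.29). The kleisins differed in that direction as well, with *Ncaph2* higher by 0.42 than *Ncaph* (error 0.29). In both complexes the subunit encoded by *Ncapg* or *Ncapg2* had the lowest ratio and the kleisin the highest.

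Both cohesin protection genes were lower by about the same factor. *Sgol1*, the gene of shugoshin, had signals of 956 ± 95.6 in control against 443 ± 44.4 in *Drp1*LiKO cells at its brightest probe (NM_028232, chromosome 17, 53815437 to 53815496). This was a log2 ratio of -1.29 ± 0.20, or 2.45-fold, with a Z score of -1.97. A second, dimmer probe of the same mRNA gave 112 and 58.6, a ratio of -1.12. *Cdca5*, the gene of sororin (NM_026410, chromosome 19, 6091709 to 6091768), had signals of 1432 ± 143 and 655 ± 65.6, a log2 ratio of -1.31 ± 0.20, or 2.48-fold. Its Z score of -1.999 was the closest to the threshold of all 10 genes, and *Sgol1* was the next.

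**Figure D2:**
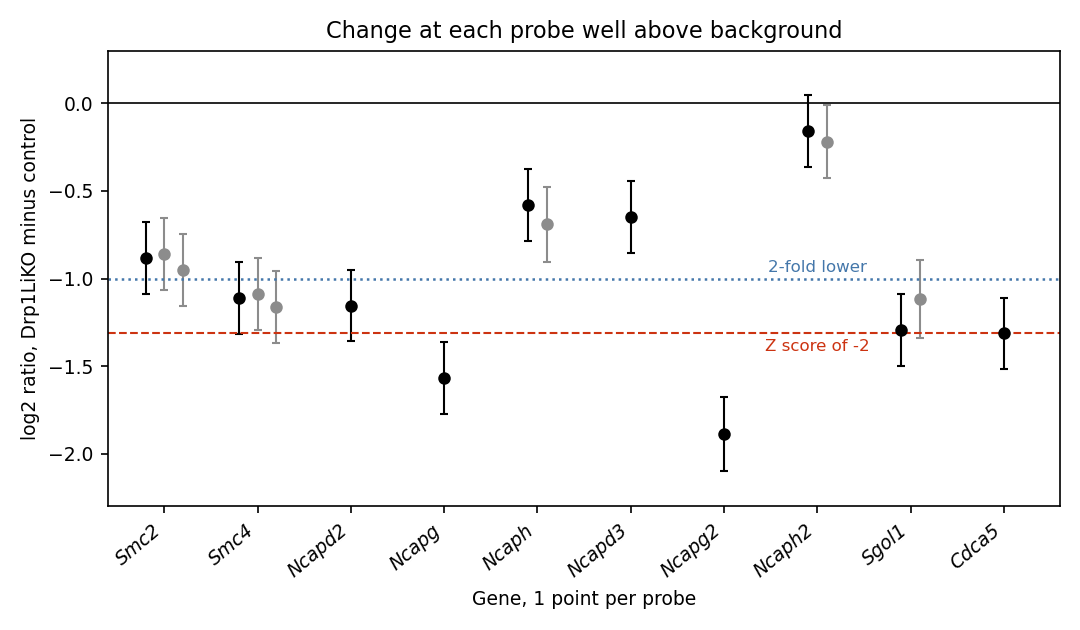
Log2 ratio (*Drp1*LiKO minus control) at each of the 17 probes well above background, with black points for the brightest probe of a gene, grey points for its other probes and bars for the error of the scanner software. *Ncapg* and *Ncapg2* lie below the dashed line at a Z score of -2, and 9 probes lie below the dotted line of 2-fold.

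Probes of the same gene differed little. For the 5 genes with more than 1 probe above background, the range of their log2 ratios was 0.06 for *Ncaph2*, 0.07 for *Smc4*, 0.09 for *Smc2*, 0.11 for *Ncaph* and 0.18 for *Sgol1*. Errors of the scanner software for a ratio were between 0.20 and 0.22. Probes printed repeatedly on these arrays gave a noise between spots of 0.10 to 0.24 for a ratio at these signals, with a median of 0.11. It was above the error of the scanner software at *Ncapg2* and at the dimmer probes of *Ncaph* and *Sgol1*. Neither measure contains the spread between cultures.

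Ranked by log2 ratio, the genes ran from *Ncapg2* through *Ncapg*, *Cdca5*, *Sgol1*, *Ncapd2*, *Smc4*, *Smc2*, *Ncapd3* and *Ncaph* to *Ncaph2*. Of the 9 steps between neighbours, 2 exceeded the error of the scanner software for a difference, that from *Ncapg2* to *Ncapg* and that from *Ncaph* to *Ncaph2*. The step from *Ncapg2* to *Ncapg* fell within that error with normexp background correction, as given above. The steps between *Cdca5*, *Sgol1*, *Ncapd2* and *Smc4*, at 0.02, 0.14 and 0.04, were also within the noise between spots. Among 1008 genes of similar signal, 0.794% had a lower ratio than *Cdca5*, and 1.19% had one lower than *Ncapg2* among as many genes of its signal. For *Ncaph2* the share was 32.3% of 1009 genes.

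Over the ring of cohesin itself, the differences were small. This list and those that follow were chosen with earlier results of these data known. All 5 subunits listed, *Smc1a*, *Smc3*, *Rad21*, *Stag1* and *Stag2*, had ratios below 0, from -0.27 for *Smc3* to -0.10 for *Stag2*, with a median of -0.21, and 0 were lower by 2-fold. Of all genes, 55.5% had a ratio below 0 and 4.59% were lower by 2-fold or more. *Smc3*, the ATPase that is acetylated when cohesion is set up, had signals of 2021 and 1906. The median of the ring moved to -0.031 with no scaling between arrays, and the probes of *Stag1* ranged from -0.84 to 0.15. Both genes that protect cohesin therefore had ratios below that of every subunit of the ring they act on.

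Genes that load, release or acetylate cohesin divided into 4 below and 4 above 0, with a median of -0.06 over 8 genes. *Esco2*, the gene of an acetyltransferase that acts on cohesin during S phase, was the exception, with signals of 107.1 and 35.71 and a log2 ratio of -1.77. *Esco1*, its relative that acts through the whole cycle, had signals of 890 and 1021 and a ratio of 0.02, with its probes between -0.19 and 0.62. The highest ratio of this list was that of *Hdac8*, the gene of the deacetylase of SMC3, at 0.16. Of the 8 genes, 1 passed the threshold, against 2.81% of all genes.

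Partners of shugoshin, separase and the kinases that free cohesin from chromosome arms gave a median of -0.54 over 10 genes. The threshold was passed by 2.81% of all genes and by 3 of these 10. *Plk1*, the gene of a mitotic kinase, had signals of 2273 and 519 and a ratio of -2.31 after scaling. *Bub1*, whose kinase brings shugoshin to centromeres, had one of -2.02, and *Espl1*, the gene of separase, which cleaves cohesin, one of -1.60. The study's list holds these 3 genes too, so they are no independent evidence. *Pttg1*, the gene of securin, the inhibitor of separase, had the highest ratio of the list, with signals of 5929 and 9882 and ratios of 0.55 and 0.36 at its probes. *Ppp2r1a* and *Ppp2ca*, which encode the phosphatase that shugoshin recruits, had ratios of -0.18 and -0.14.

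Among 10 mitotic partners of condensin, 9 had ratios below 0 and 4 passed the threshold, whereas 55.5% and 2.81% of all genes did. The median of the partners was -1.23. That median lies between *Cdk1* at -1.25 and *Cdca8* at -1.22. Both are on the study's list, as is *Birc5*, so their direction is no independent evidence. *Mki67*, which coats mitotic chromosomes, was the lowest at -2.3, followed by *Birc5* (also on the study's list) of the chromosomal passenger complex at -2.06, *Top2a*, the topoisomerase that untangles chromatids in mitosis, at -1.91 and *Kif4*, a chromosome-bound kinesin, at -1.81. *Top2b*, the isoform of *Top2a* that is also used in cells that do not divide, had signals of 3567 and 3638 and a ratio of -0.15. *Mcph1*, which restrains condensin II, was at 0.05. The third SMC complex, SMC5/6, listed here with *Smchd1*, had a median of -0.22 over 7 genes with 0 past the threshold and 0 lower by 2-fold, and ran from -0.64 for *Smc6* to 0.032 for *Nsmce2*. Of the meiotic cohesin genes, *Rec8* alone was detected, at 161 on the control array and 260 on the *Drp1*LiKO array, a ratio of 0.51, while *Smc1b*, *Stag3* and *Rad21l* were not well above background on either array.

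**Figure D3:**
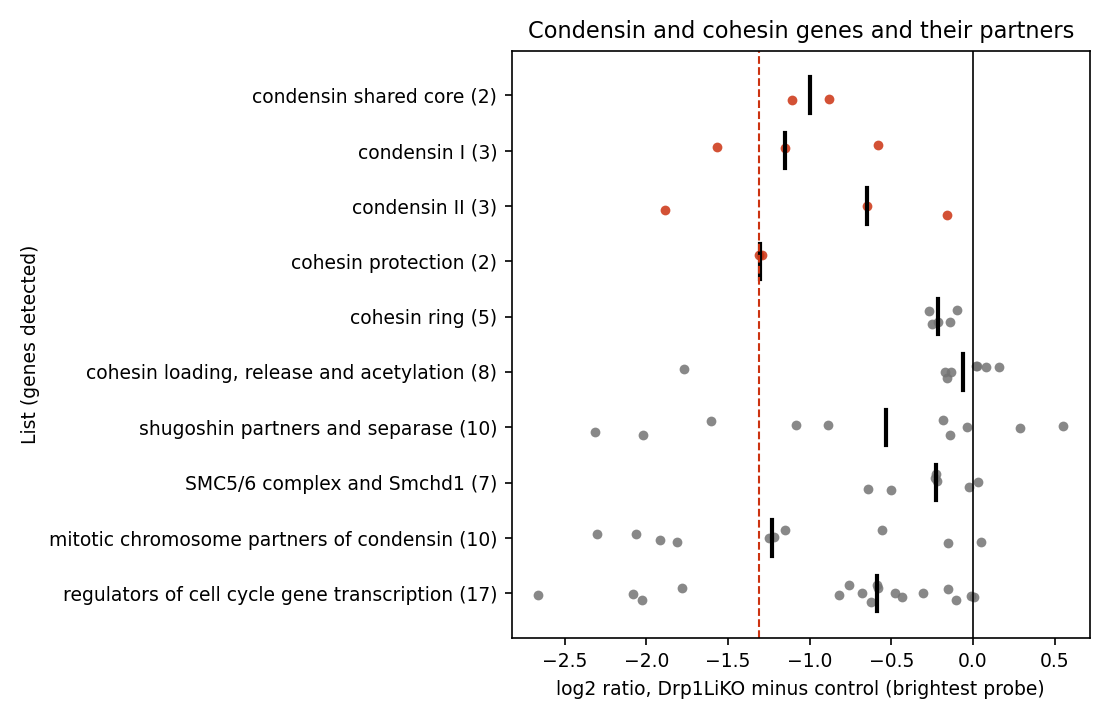
Log2 ratio (*Drp1*LiKO minus control) of each detected gene by list, with red points for the condensin and cohesin protection genes, grey points for related genes and black bars for the median of a list. The cohesin ring lies between -0.27 and -0.10, to the right of the 2 cohesin protection genes, and the dashed line marks a Z score of -2.

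Many genes of mitosis are transcribed late in the cell cycle under the control of E2F factors, B-MYB and FOXM1. Of 17 regulators of such transcription, 16 had ratios below 0, with a median of -0.59, whereas 55.5% of all genes were below 0. The threshold was passed by 2.81% of all genes and by 4 of the regulators. They were *Mybl2*, the gene of B-MYB, at -2.08 (signals of 1411 and 378), *Foxm1* at -2.03 (signals of 837 and 233), and the repressors *E2f8* at -1.78 and *E2f7* at -2.66. The value of *E2f7* rests on its brightest probe, and another of its probes gave 0.23. *E2f4*, which represses these genes in resting cells, had a ratio of -0.76, and *E2f5*, with the highest ratio, one of 0.01.

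Sequence before the start site was taken from RefSeq for GRCm38.p6, 250 bases per start, for 10 start sites of 9 of the genes, with *Smc4* not matched. It was searched on both strands for TTTGAA or TTTAAA (the CHR element of late cell cycle genes), for CCAAT, and for the E2F site with C or G at its central bases, that is TTTCCCGC, TTTGGCGC, TTTCGCGC or TTTGCCGC. The CHR letters were found before 6 of the 10 starts, those of *Cdca5*, *Ncapd2*, *Ncapg*, *Ncapg2* and *Smc2* and a downstream start of *Ncapd3*, against 25.2% of all 32851 starts. The upstream start of *Ncapd3* had 0 of the motifs before it. CCAAT letters were found before 3 starts, against 33.8% of all. The E2F letters were found before 2 starts, those of *Ncapd2* and *Ncapg2*, against 1.86%. The median share of G and C before the 10 starts was 65.6%, against 52.4% before all starts. The shares of starts with a motif were not adjusted for this. Within 30 bases of the start, TTTGAA lay before *Ncapg2*, *Ncapg* and *Cdca5*, and before 1.45% of all starts. This distance was chosen after the matches were seen, and the match of *Ncapg*, at -30, lies at its edge. The share is therefore no fair comparison, and a link between these letters and the ratios was not tested. A match describes letters and not a site in use, and the absence of one holds for this window only.

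The sequences before these 3 starts and before that of *Ncaph2*, which differed least, are printed 5′ to 3′ along the strand of the gene and end at the base before the start, with the letters searched for in capitals. They lie in GRCm38.p6 at chr12:116405186-116405435 for *Ncapg2*, chr5:45669675-45669924 for *Ncapg*, chr19:6084847-6085096 for *Cdca5* and chr15:89355469-89355718 for *Ncaph2*, on the plus strand in every case. The sequence of *Ncaph2* holds 0 of the motifs. Those before *Sgol1*, with a log2 ratio of -1.29, and *Ncaph*, with one of -0.58, hold 0 as well and are not printed.
Ncapg2: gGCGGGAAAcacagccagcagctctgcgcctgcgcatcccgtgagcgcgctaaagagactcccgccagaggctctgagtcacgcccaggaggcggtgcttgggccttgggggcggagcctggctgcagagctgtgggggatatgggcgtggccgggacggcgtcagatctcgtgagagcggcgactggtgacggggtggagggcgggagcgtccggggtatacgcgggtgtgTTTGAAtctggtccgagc
Ncapg: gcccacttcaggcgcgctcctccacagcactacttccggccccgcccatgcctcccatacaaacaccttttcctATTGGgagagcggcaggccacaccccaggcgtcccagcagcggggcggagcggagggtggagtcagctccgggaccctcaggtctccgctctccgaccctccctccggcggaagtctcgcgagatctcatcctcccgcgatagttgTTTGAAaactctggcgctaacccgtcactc
Cdca5: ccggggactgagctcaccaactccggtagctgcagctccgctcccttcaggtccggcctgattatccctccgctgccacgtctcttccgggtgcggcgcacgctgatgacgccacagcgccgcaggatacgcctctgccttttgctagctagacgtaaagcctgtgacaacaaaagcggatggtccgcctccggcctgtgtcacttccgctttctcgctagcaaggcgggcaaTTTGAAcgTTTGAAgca
Ncaph2: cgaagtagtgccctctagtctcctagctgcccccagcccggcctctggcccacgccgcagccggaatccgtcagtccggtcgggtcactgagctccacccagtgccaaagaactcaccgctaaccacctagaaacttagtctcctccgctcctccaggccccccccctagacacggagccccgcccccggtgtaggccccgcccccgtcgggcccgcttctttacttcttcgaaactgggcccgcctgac

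Likeness to the 10 genes was measured as the distance between pairs of normalized log2 signals, control and *Drp1*LiKO, from the medians of the 10 genes, over these 2 arrays. The nearest genes were *Enho* (log2 ratio -0.98, distance 0.0265), *Amotl2* (-0.91, 0.0349) and *Pmf1* (-0.95, 0.0516). With 2 arrays, such likeness describes a level and a difference and nothing further.

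**Figure D4:**
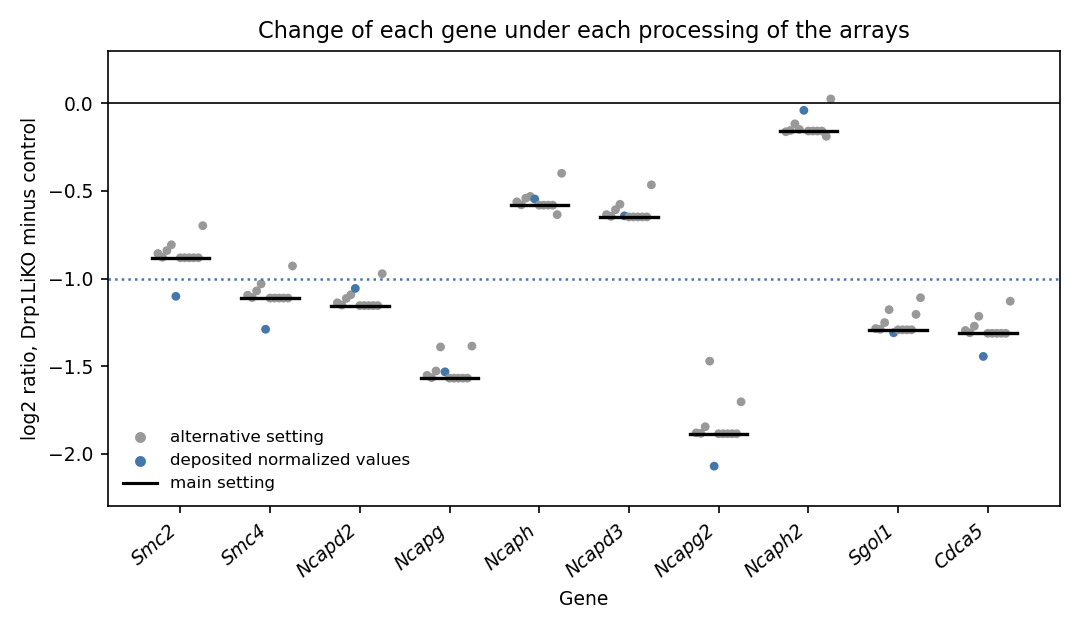
Log2 ratio (*Drp1*LiKO minus control) of each gene in the main setting (black bar) and under 11 other ways of processing the arrays (points), with the deposited normalized values in blue and the dotted line at 2-fold. *Ncaph2* alone reached above 0, in 1 setting.

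Processing moved the count past the Z score threshold more than the ratios. Under 3 alternatives, background correction by normexp, probes above background on both arrays and a Z score set within bins of signal, the genes past the threshold were the same 6 that were lower by 2-fold, *Smc4*, *Ncapd2*, *Ncapg*, *Ncapg2*, *Sgol1* and *Cdca5*. The share of all genes past it was then 2.71%, 2.34% and 3.62%. In 11 alternatives the median log2 ratio of the 10 genes stayed between -1.20 and -0.95, and *Ncapg2* kept the lowest ratio, between -2.07 and -1.47.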

How the data were processed

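RNA of cultured primary hepatocytes was amplified, labeled with Cy3 and hybridized to 1 Agilent array of 60-mer probes per genotype. The authors deposited the Feature Extraction output of both arrays, in which the intensity of a spot (the processed signal) had been corrected for background and for spatial trends but not scaled between arrays. The processing notes name Feature Extraction 9.5.1.1, whereas the file headers name another version. A table of normalized intensities, which the authors deposited beside it, was made by a method that is not given in the sources used here and served as an alternative. Probes were located by the mm9 coordinates in the deposited output.

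Repeated spots were averaged as log2 intensities, leaving out those with an outlier mark, and the 75th percentile over transcript probes was taken off each array. A probe was kept if either array had it well above background (30275 probes, 20165 genes), and dim signals were raised to the lowest signal well above background on that array. The Z score was the log2 ratio minus the mean of all kept probes (-0.008), divided by their SD (0.65). A gene was its brightest probe. With 1 array per genotype no test was made. The error given with a signal is that of the error model of Feature Extraction, and it holds no difference between cultures or animals. The members and gene lists were chosen with earlier results of these data known. All members, *Drp1*, genes of the partner and regulator lists past the threshold and the highest and lowest ratio of each such list were named by rule, and other genes, markers included, were chosen after their values were seen. Sequences before start sites are those of RefSeq for GRCm38.p6, and 9 of 10 genes matched. The steps were tested on simulated data, with log2 changes larger in size than that of any of the 10 genes in the main setting. Recovery of smaller changes was not tested. Alternatives were other scalings, normexp background correction (offset 50), other filters, floors, Z scores and summaries of probes. Software was limma 3.58.1 in R 4.3.3, and matplotlib 3.10.9, scipy 1.17.1, pandas 2.3.3 and numpy 2.4.6 in Python 3.11.15.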

Additional observations from a re-analysis of the deposited data

How the results depend on the processing

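With 1 array per genotype, no library could be left out, and no paired analysis was possible because the groups share 1 replicate number at most. Of the alternatives, no scaling between arrays was added after seeing the data. The number of the 10 genes past the Z score threshold, 2 in the main setting, was 6 with normexp background correction, 6 when a probe had to exceed background on each array, 6 with a Z score set within bins of signal, 7 with a Z score from the median and median absolute deviation, 4 with no filter on dim probes and 1 with no floor for dim probes. The last 3 settings passed 7.16%, 1.61% and 2.53% of all genes, against 2.81% in the main setting. The spread of all probes that the Z score divides by changed among these settings. With no scaling between arrays, which moved the median of all genes to 0.14, the medians were -0.95 for the 10 genes, -0.97 for condensin I, -0.47 for condensin II and -0.031 for the cohesin ring, *Dnm1l* had a log2 ratio of -1.10, and 4 of the 10 genes were lower by 2-fold. *Dnm1l* was at -0.79 by the median of its probes. All 10 genes had ratios below 0 under every alternative except no scaling, where *Ncaph2* had 0.025. Over all genes, counts past the threshold (566 lower, 705 higher) were within 1.5 times except with the robust Z score (1443 lower, 1722 higher) and with no filter (1355 higher), where the median ratio of all genes was -0.47 because dim probes take the difference between the floors. The deposited normalized values gave 735 lower and 553 higher. Precision is limited by there being 2 arrays.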

Other observations

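The deposited normalized values kept the genes at both ends of the order. The *Drp1*LiKO column of that table followed the array less closely than the control column did, with rank correlations of 0.993 and 1.00 over probes above background on each array, which are probes and not independent replicates. *Ncapg2* stood there at 393 and 93.5, a log2 ratio of -2.07, and *Ncaph2* at 2813 and 2735, a ratio of -0.040. *Smc2*, the gene of a shared ATPase, was at -1.10 there and at -0.88 from the arrays, so that 7 of the 10 genes were lower by 2-fold in the deposited values, where 7.06% of all genes were, against 4.59% from the arrays.

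Markers of lymphocytes were few. Of 6 markers of T and NK cells and 4 of B cells, *Cd3e* and *Ms4a1* were detected, *Ms4a1* on the *Drp1*LiKO array alone. Cholangiocyte markers were detected at 4 of 5 genes and had a median log2 ratio of 0.089, with *Krt7* detected on the *Drp1*LiKO array alone. Of 5 markers of neutrophils 2 were detected, *Csf3r* at 0.17 and *Ly6g*, which was not well above background in control cells (17.5) and read 76.9 in *Drp1*LiKO cells, at least 3.72-fold higher after scaling.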
